A study of Rattus norvegicus with 7 samples.

Results

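The translation initiation factors of rat oral epithelial ROE2 cells were examined on 7 arrays, 3 of cells exposed to 2 mM sodium fluoride (NaF) and 4 of cells given vehicle. Members were all probe sets with a single gene symbol beginning with Eif and a number from 1 to 6, without the Eif2ak kinases and with the Eif4ebp inhibitors. This rule took 45 of 14218 genes, measured by 70 of 31099 probe sets. The rule used no measured value, although it was set with earlier results of these data known. The NaF cells were sampled at 3, 6 and 12 h, and the vehicle cells, which received sterilized water (0 mM NaF), at 0, 3, 6 and 12 h. ROE2 is 1 immortalized line with an epithelial-like morphology from the tongue of an 18-day-old fetus of a transgenic Wistar rat, and all arrays share its temperature-sensitive large T-antigen of simian virus. Every culture was kept at 37 °C for 24 h before and during exposure, whereas the line is grown at 33 °C. Each array held a pool of RNA from 3 independent experiments, and no combination of treatment and time had a second array.

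Initiation factors bring the ribosome, the initiator tRNA and the mRNA together at the start codon. eIF2 carries the initiator tRNA as a GTP complex and is recharged by the exchange factor eIF2B. Stress kinases phosphorylate the alpha subunit of eIF2, which then inhibits eIF2B and lowers general translation. eIF4F binds the cap of the mRNA, and the 4E-binding proteins hold its cap-binding subunit back. eIF3 bridges the small ribosomal subunit and the mRNA, and eIF5B joins the ribosomal subunits.

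Signals were deposited on the log2 scale for each probe set, and array medians lay between 5.32 and 5.35. Vehicle arrays correlated pairwise at 0.9961 to 0.9987. Of 10 listed epithelial markers, 9 were bright enough to be tested, such as Krt14 at 14.10 to 14.14 in vehicle. Krt18 was the exception, at 2.91 to 3.19. None of the fibroblast, leukocyte and endothelial markers was bright enough, and of the skeletal muscle markers only Myh1 was, at 10.17 to 10.44 in NaF and 9.48 to 9.86 in vehicle. At 12 h of NaF, 6 of the 9 epithelial markers were lower and 0 higher in the limma test described next. Of all genes tested, 32% were lower and 29.7% higher. The 3' signal of the beta-actin control exceeded its 5' signal by a log2 value of 1.77 to 2.39 in NaF arrays and of 1.53 to 2.83 in vehicle arrays, with the widest gap in the vehicle array of 3 h. The 5S rRNA control read 5.67 to 6.65 in NaF arrays and 4.90 to 5.46 in vehicle arrays. The part of the epithelial markers, Myh1 and these controls in the results was not tested.

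A change is given as the log2 signal on 1 NaF array minus the mean of the 4 vehicle arrays, and was tested with limma at a Benjamini-Hochberg adjusted p under 0.05 over all 11769 tested probe sets. A difference is given as NaF minus vehicle of the same time, 1 array a side, with no test. Tested probe sets were those that reached a log2 signal of 7 on at least 1 array. Of the 70 probe sets, 64 passed this limit, covering all 45 genes, and 1 of the 64 (the dimmer probe set of Eif4h) passed only through NaF arrays. The other 6, probe sets of Eif3h, Eif3k, Eif4e (a pair), Eif4g1 and Eif4g3, had signals of 3.15 to 6.78 and were not tested. The spread comes from the vehicle arrays alone, and each NaF array is assumed to scatter to the same degree. The p-values thus rest on how vehicle pools of different hours differ, with no measure of the spread among NaF experiments, and the number of arrays limits the precision.

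Where initiation factor mRNAs changed, most rose, at 12 h and by small amounts. At 12 h of NaF, 34 of the 64 probe sets (53.1%) were higher and 7 (10.9%) lower, whereas over all tested probe sets 29.7% were higher and 30.8% lower. The 34 included the dimmer probe set of Eif4h, which passed the signal limit only through NaF arrays. With the limit set on the mean over the 7 arrays, 33 were higher. The median change at 12 h was 0.24 for the initiation factors and 0.00 for all tested probe sets. In size the initiation factors moved no more than other probe sets, with a median absolute change of 0.30 against 0.35 over all tested. The SD over the vehicle arrays was also smaller, with a median of 0.06 for the initiation factors and 0.08 over all tested, and a smaller spread lets a smaller change pass. The part of this in the counts was not tested.

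**Figure D1:**
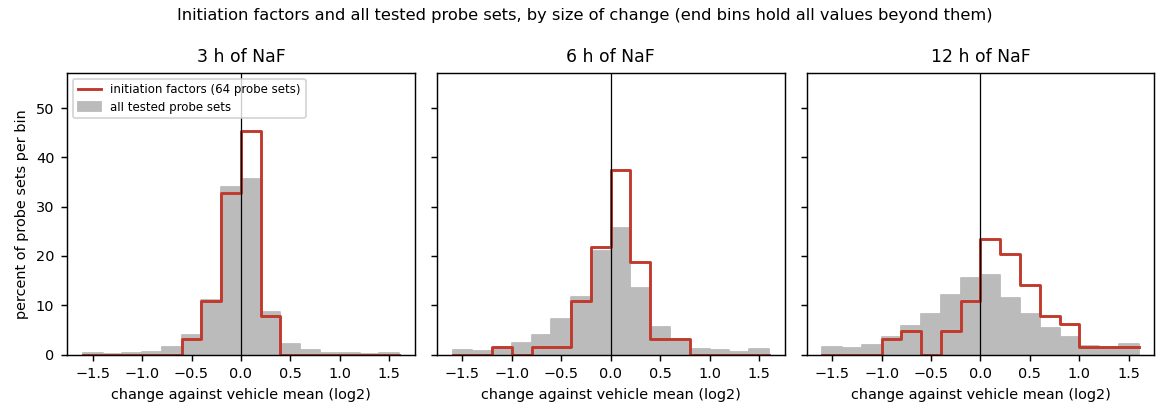
Percent of the 64 tested initiation factor probe sets (red line) and of all tested probe sets (gray) by change against the vehicle mean, in bins of 0.2 log2 units, each time of NaF (3, 6 and 12 h) in its own panel. The initiation factors sit around 0 at 3 h (median 0.01) and to the right of 0 at 12 h (median 0.24).

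Earlier changes were few. At 3 h, 0 of the 64 probe sets were higher and 3 (4.69%) lower, against 2.87% and 5.9% of all tested probe sets. At 6 h, 10 (15.6%) were higher and 8 (12.5%) lower, against 16.9% and 21.5%. The 3 lower at 3 h became 0 without the vehicle array of 6 h and 1 without that of 12 h. The 10 higher at 6 h became 4 without the vehicle array of 6 h and 5 without that of 12 h, and the 8 lower became 4 without the vehicle array of 6 h. At 12 h, leaving out a vehicle array gave 27 to 32 higher and 5 to 7 lower. Counted by gene at the brightest tested probe set, 24 of 45 genes (53.3%) were higher at 12 h and 4 (8.89%) lower, against 29.7% and 32% of all 7839 genes tested. The timing of calls was close to that of other genes. Of the 45, 16 (35.6%) were called at 12 h alone, against 32.8% of all genes, and 10 (22.2%) at 6 and 12 h in the same direction, against 25%. A further 4 (8.89%) were called at 6 h but not at 12 h, against 10.9%, and 13 (28.9%) at no time, against 27.1%.

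Few members passed a fold threshold of 1.5 against vehicle of the same time. At 12 h, 12 of 64 probe sets (18.8%) were past it upward and 4 (6.25%) downward, against 15.2% and 14.9% of all tested. By gene this was 6 of 45 (13.3%) upward and 3 (6.67%) downward, against 14.1% and 14.9% of all 7839 genes tested, since 4 of the 12 probe sets belong to Eif1a. Past 2-fold were 6 of the 64 probe sets upward and 0 downward, against 5.44% and 5.19% of all tested, and these 6 were the 4 of Eif1a, that of Eif2b3 and the dimmer of Eif4a2. At 6 h, 0 were past 1.5-fold upward and 2 downward, against 6.33% and 9.88%. At 3 h there was 1 in each direction, against 1.69% and 3.76%. On 13 of 64 probe sets (20.3%) all 3 NaF arrays lay above all 4 vehicle arrays and on 4 (6.25%) below, against 14.6% and 15% of all tested. The 12 h array of NaF also differed from the 3 h array of NaF itself, with 29 of 64 probe sets (45.3%) higher and 6 (9.38%) lower at 12 h than at 3 h, against 25% and 23.5% of all tested. When all 3 NaF arrays were compared with the 4 vehicle arrays, 2 probe sets (Eif3j and Eif4a2) were higher and 1 (Eif4ebp2) was lower, against 4.34% and 4.3% of all tested. With time as a block, in which each NaF array was set against vehicle of its own hour, 0 were higher and 0 lower. Leaving out any 1 vehicle array or the NaF array of 6 h also ended these 3 calls, without the NaF array of 3 h there were 9 higher and 2 lower, and without that of 12 h 3 and 2.

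**Figure D2:**
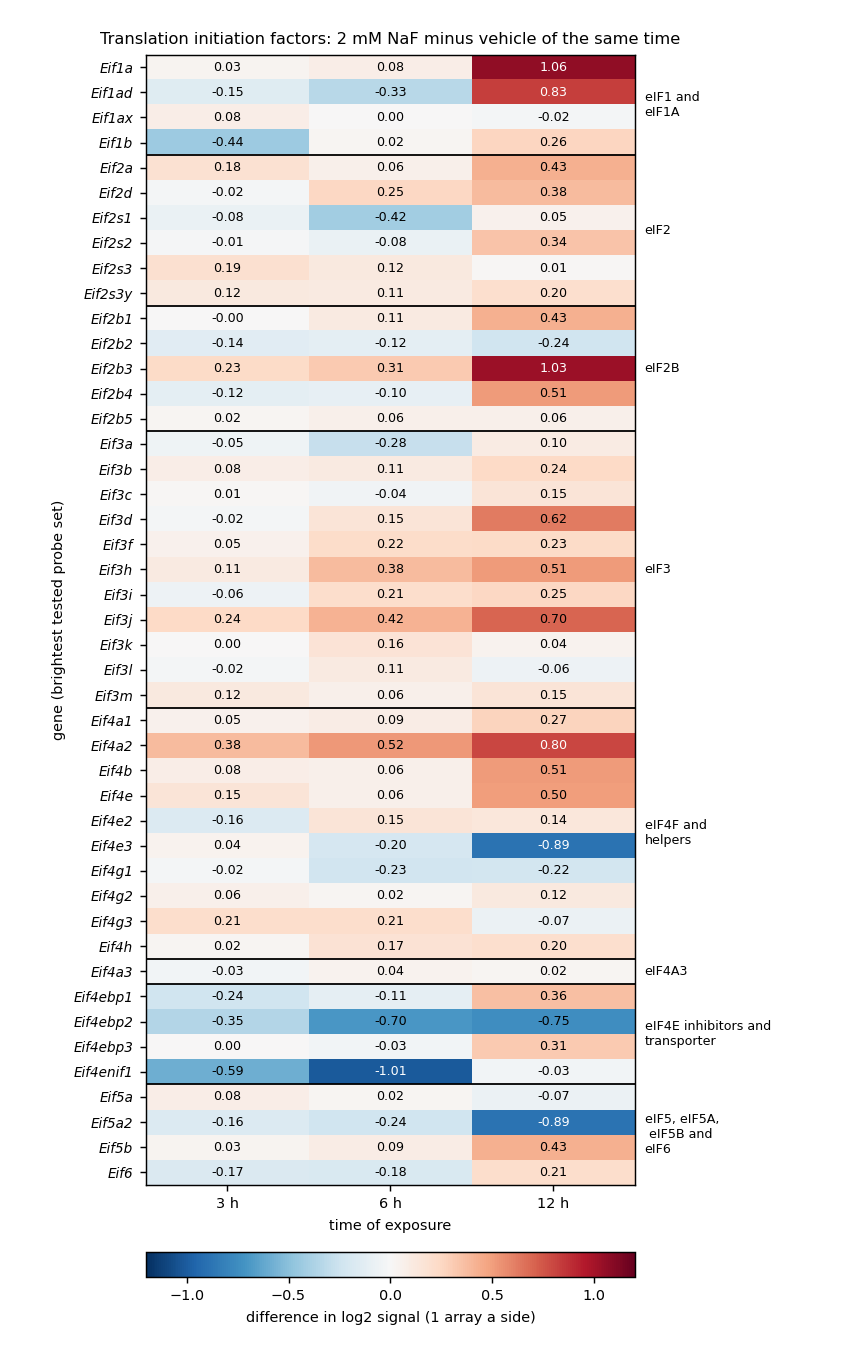
Difference in log2 signal between 2 mM NaF and vehicle of the same time (color and number) for the brightest tested probe set of each of the 45 genes, at 3, 6 and 12 h, grouped by factor. Red cells gather at 12 h, led by Eif1a (1.06) and Eif2b3 (1.03), and the deepest blue cell is Eif4enif1 at 6 h (-1.01).

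Promoter windows of RefSeq (build GRCr8, 250 bases before to 50 after a transcript start) were given for 41 of the 45 genes, in 44 windows. Eif3h, Eif4b, Eif4e3 and Eif4ebp1 had no window, so that Eif4ebp1, a known target of ATF4, was not searched. Motifs were searched on both strands. The motif TGATGNAA of the C/EBP-ATF response element, which ATF4 binds together with C/EBP proteins, lay in 1 of the 44 windows (2.27%), that of Eif2s2. The share of all 33469 windows was 3.98%. The E-box CACGTG, bound by Myc and by other factors of its class, lay in 9 of 44 (20.5%), against 6.42% of all windows. The cyclic AMP response element TGACGTCA lay in 0 of 44, against 1.83%. Of the 22 windows of genes higher at 12 h, 5 held the E-box. A match is a run of letters and not a measured site, and base composition was not taken into account. The 250 bases before the start are shown for the gene with TGATGNAA, with motifs in capitals. They are also shown for a pair of genes that each held the E-box at 2 places before the start and changed in opposite directions at 12 h. Eif4g1, not shown, held it at 2 places as well (-54 and 16 from the start) and changed by -0.22.
Eif2s2 (chr3:163855571-163855820, minus strand): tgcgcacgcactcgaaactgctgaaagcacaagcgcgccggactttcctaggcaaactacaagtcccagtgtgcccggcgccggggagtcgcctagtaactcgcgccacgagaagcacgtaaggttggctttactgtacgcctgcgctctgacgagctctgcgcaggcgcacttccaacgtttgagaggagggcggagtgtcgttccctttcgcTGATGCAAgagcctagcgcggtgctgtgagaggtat
Eif4e (chr2:229740503-229740752, plus strand): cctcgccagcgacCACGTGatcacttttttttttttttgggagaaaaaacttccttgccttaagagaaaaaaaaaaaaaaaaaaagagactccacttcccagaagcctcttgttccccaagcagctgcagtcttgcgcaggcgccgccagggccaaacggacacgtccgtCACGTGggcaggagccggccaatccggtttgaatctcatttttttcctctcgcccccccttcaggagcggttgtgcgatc
Eif5a2 (chr2:113657584-113657833, plus strand): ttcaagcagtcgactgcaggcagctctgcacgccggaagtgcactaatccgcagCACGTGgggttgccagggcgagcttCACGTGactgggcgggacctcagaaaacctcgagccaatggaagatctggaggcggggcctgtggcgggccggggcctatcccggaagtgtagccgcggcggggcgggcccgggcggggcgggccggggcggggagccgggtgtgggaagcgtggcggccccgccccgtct
Eif2s2 changed by 0.28 at 12 h. The pair with the E-box, Eif4e and Eif5a2, changed by 0.47 and -0.99. Whether a motif goes with the direction of change was not tested.

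Eif1a had the largest rise of the 4 genes of eIF1 and eIF1A type, whereas its paralog Eif1ax did not pass the test. eIF1A binds the small ribosomal subunit and takes part in scanning for the start codon. Eif1a (chr18:41512298-41524645 in GRCr8) had log2 signals of 10.82, 10.88 and 11.65 at 3, 6 and 12 h of NaF, against 10.80, 10.78, 10.80 and 10.59 at 0, 3, 6 and 12 h of vehicle. All 3 NaF arrays were above all 4 vehicle arrays, but those of 3 and 6 h by under 0.1. It rose at 12 h by 0.91 (standard error, SE, 0.10, limma adjusted p = 0.00097), a 2.09-fold difference from the vehicle array of 12 h. The other 3 probe sets of Eif1a rose by 0.94, 1.24 and 1.43 at 12 h, so that all 4 were called. On each of these 3, however, the NaF arrays overlapped the vehicle arrays. The lack of overlap thus held on the brightest probe set only. There the changes at 3 and 6 h were 0.07 and 0.14, with an SD of 0.10 over the vehicle arrays. Its X-linked paralog Eif1ax had 11.96, 11.85 and 11.78 in NaF, against 11.93, 11.88, 11.85 and 11.80 in vehicle, a change of -0.09 at 12 h (limma adjusted p = 0.35). The paralogs are similar in sequence, and whether their probe sets cross-react was not tested.

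Eif1ad, whose protein shares a domain with eIF1A, moved both ways. It had 9.07, 8.94 and 10.00 at 3, 6 and 12 h of NaF, against 9.17, 9.22, 9.27 and 9.17 in vehicle. The NaF arrays thus lay below every vehicle array at 3 and 6 h and above them at 12 h. It fell by 0.27 at 6 h (limma adjusted p = 0.026), and by 12 h it had risen by 0.79 (SE 0.07, limma adjusted p = 0.00047). Eif1b, a paralog of the start codon factor eIF1, had 8.11, 8.44 and 8.70 in NaF, against 8.43, 8.55, 8.42 and 8.44 in vehicle. It fell by 0.35 at 3 h (limma adjusted p = 0.049), and by 12 h it had risen by 0.24 (limma adjusted p = 0.036). Both calls of Eif1b were close to the threshold, and the later one did not survive leaving out vehicle of 0, 6 or 12 h (0.23 in each case).

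The subunits of eIF2 changed little. Eif2s1 encodes the alpha subunit, the site of phosphorylation by the stress kinases. It had 11.90, 11.61 and 12.05 at 3, 6 and 12 h of NaF, against 11.98, 11.98, 12.03 and 12.00 in vehicle. It fell by 0.39 at 6 h (SE 0.06, limma adjusted p = 0.0056) but at 12 h was 0.06 from vehicle (limma adjusted p = 0.45). Eif2s2, the beta subunit, rose by 0.28 at 12 h (limma adjusted p = 0.012). Eif2s3, the gamma subunit, was at -0.04 (limma adjusted p = 0.70), and its Y-linked homolog Eif2s3y at 0.06 (limma adjusted p = 0.65). Both other genes of this group encode factors outside the eIF2 complex, and both rose at 12 h. Eif2d, which can deliver tRNA to the ribosome without eIF2, rose by 0.35 (SE 0.07, limma adjusted p = 0.006). It stood at 10.42, 10.61 and 10.73 in NaF, against 10.37, 10.44, 10.36 and 10.34 in vehicle, above vehicle at 6 and 12 h. Eif2a rose by 0.31 (limma adjusted p = 0.027).

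The subunits of the exchange factor eIF2B moved unequally at 12 h, 3 of 5 being higher and 0 lower, against 29.7% and 32% of all genes. Eif2b3, the gamma subunit of the catalytic part, had 8.09, 8.41 and 8.92 at 3, 6 and 12 h of NaF, against 7.88, 7.86, 8.09 and 7.89 in vehicle. Its signal was above vehicle of the same time on each NaF array. It rose by 0.48 at 6 h (limma adjusted p = 0.018), and at the last hour the rise was 0.99 (SE 0.10, limma adjusted p = 0.00081), which was 2.05-fold at 12 h. Eif2b4, the delta subunit of the regulatory part, had 8.43, 8.44 and 9.09 in NaF, against 8.42, 8.55, 8.53 and 8.57 in vehicle, and rose only on the last array, by 0.57 (limma adjusted p = 0.0021). Eif2b1, the alpha subunit, rose by 0.44 at 12 h (limma adjusted p = 0.0055). The other two subunits did not pass the test. Eif2b2, the beta subunit, had 9.17, 9.34 and 9.21 in NaF, against 9.24, 9.31, 9.46 and 9.45 in vehicle (-0.15 at 12 h, limma adjusted p = 0.26). Eif2b5, the catalytic epsilon subunit, was at 0.13 (limma adjusted p = 0.38), and its dimmer probe set at 0.20 (limma adjusted p = 0.048).

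Of 11 eIF3 genes, 6 were higher at 12 h and 0 lower, against 29.7% and 32% of all genes, with a median change of 0.20. Eif3j, a loosely bound subunit that sits near the decoding center, lay above vehicle throughout. It had 10.90, 11.10 and 11.37 at 3, 6 and 12 h of NaF, against 10.63, 10.65, 10.67 and 10.67 in vehicle, with no overlap. Its change was 0.24 at 3 h (limma adjusted p = 0.069), and it rose by 0.44 at 6 h and 0.72 at 12 h (SE 0.06, limma adjusted p = 0.00041). The dimmer probe set of Eif3j rose by 0.40 and 0.58. Eif3d, a subunit that can bind the cap of some mRNAs, had 10.88, 11.02 and 11.47 in NaF, against 10.79, 10.90, 10.87 and 10.85 in vehicle, and rose by 0.61 at 12 h (SE 0.07, limma adjusted p = 0.00091). Eif3h rose by 0.39 at 6 h and 0.48 at 12 h (SE 0.06, limma adjusted p = 0.0013). Smaller rises at 12 h were those of Eif3b (0.28), Eif3i (0.25) and Eif3f (0.20).

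The large core subunits Eif3a and Eif3c did not pass the test at 12 h, with changes of 0.09 and 0.14. Eif3a fell by 0.26 at 6 h (limma adjusted p = 0.018). The lowest change of the group at 12 h was that of Eif3l, with 11.54, 11.61 and 11.39 in NaF, against 11.57, 11.55, 11.50 and 11.44 in vehicle (-0.13, limma adjusted p = 0.18). Its dimmer probe set read 7.19 on the vehicle array of 3 h, against 8.19 to 8.39 on the other vehicle arrays, and this gave the only difference past 1.5-fold upward at 3 h (0.68). That array also had the widest actin gap, and the part of RNA quality in this value was not tested.

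The cap-binding complex eIF4F and its helpers included the clearest opposite movements. eIF4A is the RNA helicase of the complex. Every NaF array lay above every vehicle array on the brightest probe set of Eif4a2 only. The dimmer one read 6.68 at 3 h of NaF, against 6.82 to 7.42 in vehicle. On the brightest, vehicle read 12.03, 12.02, 12.23 and 12.22 at 0, 3, 6 and 12 h. Eif4a2 there had 12.40, 12.75 and 13.02 at 3, 6 and 12 h of NaF. It rose by 0.62 at 6 h (limma adjusted p = 0.0079), and at the last hour the rise was 0.89 (SE 0.11, limma adjusted p = 0.0012). Its paralog Eif4a1 rose by 0.34 at 12 h (limma adjusted p = 0.022). Eif4e, which encodes the cap-binding subunit, had 11.17, 11.17 and 11.52 in NaF, against 11.02, 11.03, 11.11 and 11.01 in vehicle. It rose by 0.47 at 12 h (SE 0.07, limma adjusted p = 0.0022). The helicase cofactors Eif4b and Eif4h rose by 0.49 and 0.24 at 12 h.

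Eif4e3 moved the other way. Its product is a further cap-binding protein of the eIF4E family. It had 8.27, 7.89 and 7.24 at 3, 6 and 12 h of NaF, against 8.12, 8.24, 8.09 and 8.13 in vehicle. It fell by 0.25 at 6 h (limma adjusted p = 0.047) and by 0.90 at 12 h (SE 0.08, limma adjusted p = 0.00046), which left 0.54 of the vehicle signal of 12 h, and its other probe set fell by 0.69. Eif4e2, the family member known as a translational repressor, changed by 0.16 (limma adjusted p = 0.072). Of the scaffold genes, Eif4g1 had 11.60, 11.45 and 11.42 in NaF, against 11.65, 11.62, 11.68 and 11.64 in vehicle. It fell by 0.22 at 12 h (limma adjusted p = 0.021), and did not keep its call when vehicle of 6 h was left out (-0.21), and with its 3 tested probe sets averaged the change was 0.00. Its probe sets disagreed, since a dimmer one rose by 0.50 at 12 h (limma adjusted p = 0.0048) and another was at -0.29 (limma adjusted p = 0.26). Eif4g3 was at -0.02 at 12 h and Eif4g2, a scaffold that lacks the eIF4E-binding part, at 0.15, neither past the test.

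**Figure D3:**
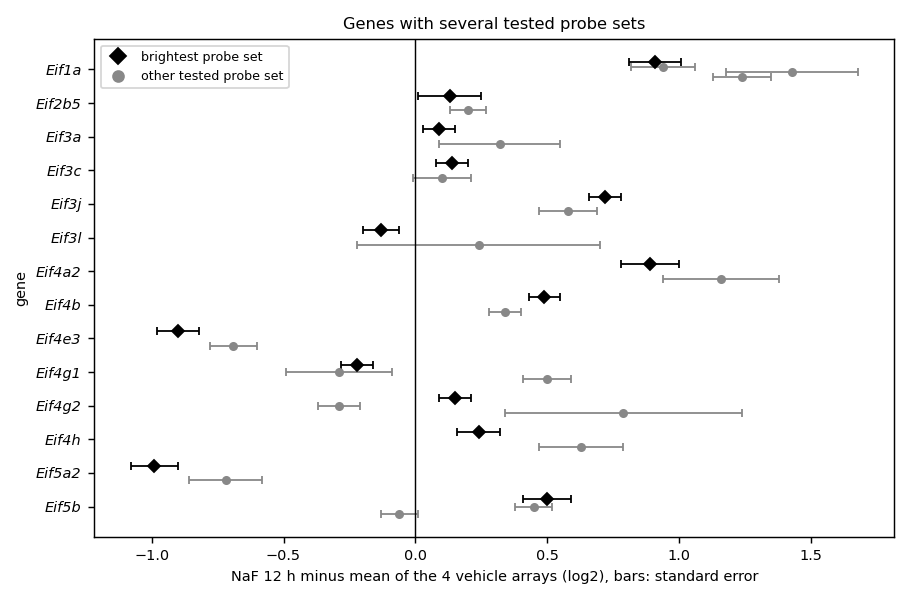
Change at 12 h of NaF against the mean of the 4 vehicle arrays (log2, bars are standard errors) for each tested probe set of the 14 genes with several, the brightest as a black diamond and the others as gray circles. In 10 of the 14 genes all probe sets lie on the same side of 0, whereas those of Eif3l, Eif4g1, Eif4g2 and Eif5b lie on both sides.

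Probe sets of a gene are separate measurements of the same RNA pools and not replicates of NaF. Of 14 genes with several tested probe sets, 10 had the same sign throughout at 12 h and 1 (Eif4g1) had calls in both directions. The 10 included Eif4h, whose dimmer probe set passed the signal limit only through NaF arrays. For Eif4g2 the probe sets changed by -0.29 to 0.79, of which that at -0.29 was called (limma adjusted p = 0.02). Eif4a3, a helicase related to eIF4A that marks exon junctions after splicing, stayed within 0.05 of vehicle of the same time at every hour (-0.03, 0.04 and 0.02), and its change at 12 h was 0.02 (limma adjusted p = 0.77).

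The 4E-binding proteins, which keep eIF4E from eIF4G while unphosphorylated, did not move as a group. Eif4ebp2 had 9.54, 9.17 and 9.12 at 3, 6 and 12 h of NaF, against 9.78, 9.89, 9.87 and 9.88 in vehicle. All 3 NaF arrays were below all 4 vehicle arrays. It fell by 0.69 at 6 h (SE 0.07, limma adjusted p = 0.0016) and by 0.73 at 12 h (SE 0.07, limma adjusted p = 0.0006). Eif4ebp1, a known target of ATF4, had 10.07, 10.24 and 10.70 in NaF, against 10.38, 10.32, 10.34 and 10.34 in vehicle. Its NaF signal lay below every vehicle array at 3 and 6 h and above them at 12 h. The change was -0.27 at 3 h (limma adjusted p = 0.054), whereas at the last hour a rise of 0.35 passed the test (SE 0.06, limma adjusted p = 0.0043). Eif4ebp3 rose by 0.27 at 12 h (limma adjusted p = 0.014).

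Eif4enif1, the eIF4E transporter that carries eIF4E into the nucleus and binds it in processing bodies, had the largest early change of all 45 genes. It was singled out after its values were seen. Its signals were 8.74, 8.27 and 9.19 at 3, 6 and 12 h of NaF, against 9.24, 9.33, 9.28 and 9.23 in vehicle. It fell by 0.53 at 3 h (limma adjusted p = 0.012) and by 1.00 at 6 h (SE 0.07, limma adjusted p = 0.0006), and was at -0.08 at 12 h (limma adjusted p = 0.37). The 12 h array of NaF was higher than the 3 h array by 0.46 (limma adjusted p = 0.0083). The NaF signal at 6 h was 0.50 of the vehicle signal of the same time.

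**Figure D4:**
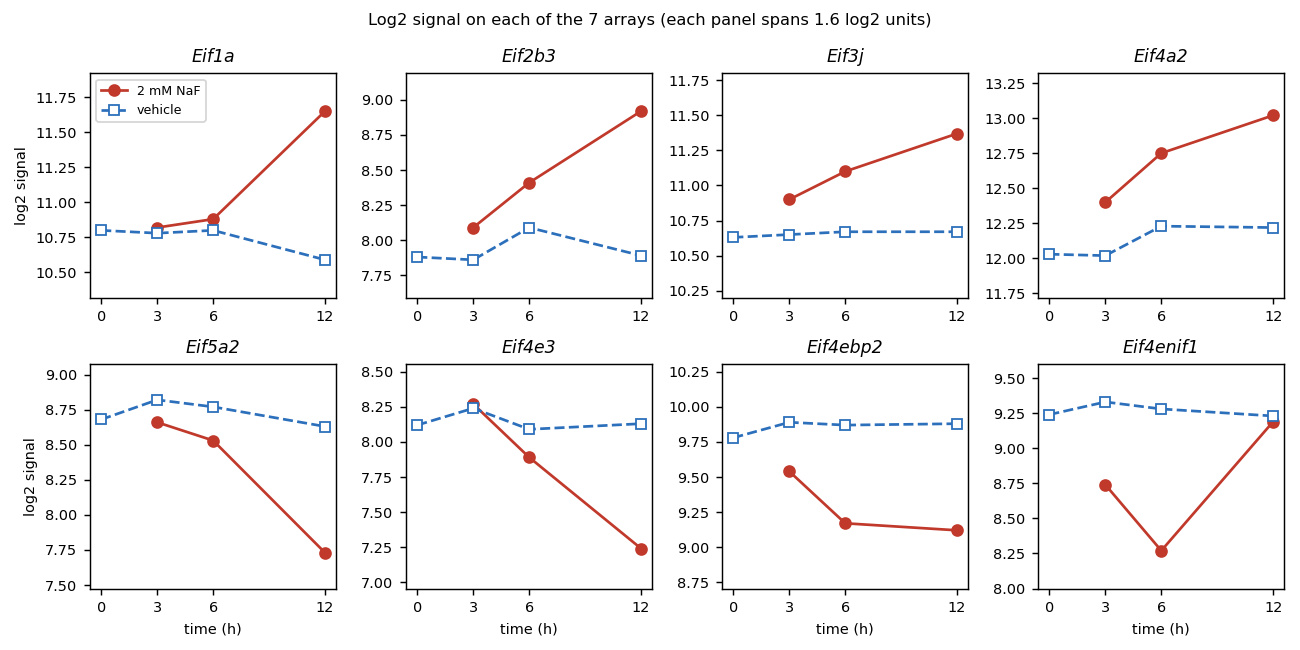
Log2 signal of 8 genes on each of the 7 arrays by time in h, with 2 mM NaF as filled red circles and vehicle as open blue squares, each panel spanning 1.6 log2 units. Eif1a leaves the vehicle line only at 12 h (11.65), Eif4ebp2 stays below it from 3 h on, and Eif4enif1 is lowest at 6 h (8.27) and close to vehicle at 12 h (9.19).

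Among the late-acting factors, Eif5a2 had the lowest change against the vehicle mean of all members at 12 h, and against vehicle of 12 h it stood level with Eif4e3 (both -0.89). Its product is a paralog of eIF5A, the hypusine-modified protein that helps the ribosome through difficult peptide bonds. Eif5a2 had 8.66, 8.53 and 7.73 at 3, 6 and 12 h of NaF, against 8.68, 8.82, 8.77 and 8.63 in vehicle. It fell by 0.99 at 12 h (SE 0.09, limma adjusted p = 0.00056), and its other probe set by 0.72 (limma adjusted p = 0.0059). Eif5a itself had 12.38, 12.46 and 12.41 in NaF, against 12.31, 12.29, 12.44 and 12.47 in vehicle, a change of 0.03 (limma adjusted p = 0.81). Eif5b, the GTPase of subunit joining, had 10.52, 10.61 and 10.98 in NaF, against 10.37, 10.49, 10.52 and 10.55 in vehicle. It rose by 0.50 at 12 h (limma adjusted p = 0.0043) and a second probe set by 0.45, while the dimmest was at -0.06 at 12 h and fell by 0.47 at 6 h (limma adjusted p = 0.0041). The mean over its probe sets was 0.30 at 12 h. Eif6, which keeps the large ribosomal subunit from joining early, had 11.53, 11.57 and 11.93 in NaF, against 11.79, 11.70, 11.75 and 11.72 in vehicle. It rose by 0.19 at 12 h (limma adjusted p = 0.043), which did not keep its call when vehicle of 3, 6 or 12 h was left out (0.18, 0.20 and 0.19). The 3 probe sets of Eif5 also carry the symbol of a pseudogene and were left out.

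Other genes of translational control were counted by list. Of 11 tested kinases of eIF2alpha, phosphatase subunits and their partners, 6 rose and 2 fell at 12 h, against 29.7% and 32% of all genes. Ppp1r15a, a phosphatase subunit that reverses eIF2alpha phosphorylation, had 10.72, 11.39 and 11.58 at 3, 6 and 12 h of NaF, against 8.84, 9.06, 8.85 and 8.87 in vehicle. Dnajc3, an inhibitor of the kinases, rose by 1.37 at 12 h (SE 0.08, limma adjusted p = 0.00023) and Impact, a competitor of the activator of the kinase Gcn2, by 1.33 (SE 0.16, limma adjusted p = 0.0013). Impact reached the signal limit of 7 only in NaF (6.74, 7.06 and 7.61, against 6.13, 6.11, 6.48 and 6.41 in vehicle), so that its entry into the test depended on the group in which it was high, and without it the list had 5 that rose among 10. Eif2ak3, the ER-resident kinase PERK, rose by 0.99, whereas Eif2ak4, which encodes Gcn2, fell by 0.49 and Eif2ak2, which encodes PKR, by 0.28. In vehicle, Eif2ak3 and Eif2ak4 were close to the signal limit (7.09 to 7.32 and 6.94 to 7.19).

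Of 12 genes of mTORC1, the kinase complex that phosphorylates the 4E-binding proteins, and its regulators, 2 rose and 2 fell at 12 h (29.7% and 32% of all genes). The inhibitors Sesn2 and Ddit4 rose by 1.89 and 0.96, whereas Deptor, a further inhibitor, fell by 0.76 (limma adjusted p = 0.00017, 0.00031 and 0.00037). Of 13 other initiation regulators, 5 were higher and 5 lower, near the share of all genes in each direction (29.7% and 32%). Pdcd4, an inhibitor of eIF4A, had 9.18, 8.33 and 7.61 at 3, 6 and 12 h of NaF, against 9.24, 9.16, 9.06 and 8.99 in vehicle. It fell by 1.51 at 12 h (SE 0.10, limma adjusted p = 0.00028). Mknk2, a kinase of eIF4E, fell by 1.38, and Paip1, a partner of the poly(A)-binding protein, by 0.81 (limma adjusted p = 0.00023 and 0.0011). The other probe set of Paip1 was at -0.27 (limma adjusted p = 0.10).

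Elongation and release factors were measured the same way, and 5 of 10 were higher and 1 lower at 12 h (29.7% and 32% of all genes), with a median change of 0.26. Eef1e1, an auxiliary protein of the tRNA synthetase complex, and Etf1, the release factor that reads stop codons, rose by 0.47 and 0.46 (limma adjusted p = 0.0057 and 0.0025). Eef2k, the kinase that inhibits elongation factor eEF2, fell by 0.89 (SE 0.06). Its signals were close to the limit of 7, at 7.02, 6.95 and 6.22 in NaF and 7.06 to 7.15 in vehicle.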

How the data were processed

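Pooled RNA of 3 independent experiments per condition was hybridized to 7 Affymetrix rat genome arrays. The authors deposited 1 log2 signal for each probe set and array and analyzed the arrays with GeneSpring GX. How probes were summarized and arrays normalized is not given in the sources used here. They were used without further scaling. Names came from the 2016 annotation of the platform, in which 20832 of 31099 probe sets had 1 symbol, 436 several and 9831 none. The gene identifiers that the annotation gives for the 45 genes were all found in RefSeq, which gave their locations. Of the probe sets with several symbols, 5 carried an initiation factor name and were not used.

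limma 3.58.1 in R 4.3.3 fitted 1 mean for the vehicle arrays and 1 for each NaF array (3 residual and 2.67 prior degrees of freedom). Further fits compared the 3 NaF with the 4 vehicle arrays. The array labelled only as control was taken as 0 h, after the methods. Each gene was represented by the brightest tested probe set, by mean signal. Fits were tested on simulated data. Motifs and tables were made with Python 3.11.15.

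The members, gene lists, motifs and tests were chosen with earlier results of these data known. The rule for named genes took members called at 12 h with at least 0.5 on the log2 scale against both the vehicle mean and vehicle of 12 h, the highest and lowest change of each factor group, 9 genes named in any case (of which Eif1 and Eif5 had no usable probe set), genes with calls in both directions, and up to 3 called genes with the largest change of each pathway list. Other members named in the text were added after their values were seen, to complete a group. Alternatives were other scalings, filters, a variance trend, each array left out, time as a block, the methods' t-test, another baseline, 2-fold, and all probe sets of a gene averaged.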

Additional observations from a re-analysis of the deposited data

Results flagged for a closer look

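In each of 36 named genes, the 4 vehicle arrays were compared for a sample far from the others, and chance flags about 1 in 20 such groups. This found 6 genes. Eif2b3 read 8.09 on the vehicle array of 6 h, against 7.86 to 7.89 on the other vehicle arrays. Eif4e read 11.11 on the same array, against 11.01 to 11.03. Eif1a read 10.59 on the vehicle array of 12 h, against 10.78 to 10.80, so its difference from vehicle of the same time (1.06) exceeded its change against the vehicle mean (0.91). Eif2b5 read 8.64 on the vehicle array of 0 h, against 8.88 to 8.90. Eif1b read 8.55 on the vehicle array of 3 h, against 8.42 to 8.44, and Ppp1r15a read 9.06 on that array, against 8.84 to 8.87.

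The NaF array of 12 h differed from that of 3 h in 27 of the 36 named genes by limma, where 25% of all tested probe sets were higher and 23.5% lower. Many of these genes were named for their change at 12 h, so the count is a description, and the contrast subtracts no vehicle of the same time. Values are log2 signal at 12 h minus that at 3 h of NaF. Among the initiation factors, the difference was positive for Eif1ad (0.93), Eif1a (0.84), Eif2b3 (0.83), Eif2b4 (0.66), Eif4ebp1 (0.62), Eif4a2 (0.61), Eif3d and Eif1b (both 0.59), Eif3j (0.48), Eif5b (0.46), Eif6 (0.40), Eif4e (0.34) and Eif2d (0.31). It was negative for Eif4e3 (-1.03), Eif5a2 (-0.92) and Eif4ebp2 (-0.42). Among the other genes it was positive for Dnajc3 (1.38), Sesn2 (1.34), Impact (0.87), Ppp1r15a (0.86), Etf1 (0.40) and Eef1e1 (0.37), and negative for Pdcd4 (-1.58), Mknk2 (-1.23), Deptor (-1.01), Paip1 (-0.83) and Eef2k (-0.80).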

How the results depend on the processing

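The counts of limma calls at 12 h, and those of 12 h against 3 h of NaF, stayed within 1.5 times of the reported value under every alternative run. Those at 3 and 6 h, with few calls, did not. With quantile normalization or an intensity trend, 1 probe set was higher at 3 h in place of 0. The 3 lower at 3 h became 1 with array medians set equal, 0 without a filter and 5 with the trend, and 0 to 2 when a vehicle array was left out. Without a filter, 4 were higher and 4 lower at 6 h, and leaving out a vehicle array gave 4 to 8 higher and 4 to 8 lower. For 3 NaF against 4 vehicle arrays, 0 were higher without a filter, and 0 higher and 0 lower with time as a block. Leaving out an array there gave 0 to 9 higher and 0 to 2 lower. The methods' t-test gave 10 higher and 2 lower unadjusted, and 0 and 0 after Benjamini-Hochberg. With 2-fold as the threshold, 0, 1 and 6 probe sets passed at 3, 6 and 12 h. Of 369 alternatives for the named genes at 12 h, 10 lost their call, all of Eif4g1, Eif6 and Eif1b, and 18 moved the value by more than the vehicle SD, all with vehicle of 12 h as baseline or with the probe sets of a gene averaged. No called change turned its sign, although averaging brought Eif4g1 from -0.22 to 0.00 and Eif5b from 0.50 to 0.30. Eif3l, which was not called, turned from -0.13 to 0.05. At 6 h, in alternatives chosen after seeing the data, Eif4enif1 kept its call in 9 of 9, with adjusted p (limma) of 0.00018 to 0.0073. Scaling moved the median of all probe sets by at most 0.02. The labels give no replicate numbers, and the only pairing run was that by time.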
